A study of Sus scrofa with 15 samples.

Results

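Genes that store, sense and carry zinc were followed across 5 lentiviral vector groups of IPEC-J2 cells, an epithelial line from the small intestine of the pig. The 6 genes are the metallothioneins MT-2B and MT1A, the zinc-sensing transcription factor MTF1, the zinc exporter SLC30A1 and the zinc importers SLC39A10 and SLC39A4. They were found by matching NCBI Gene numbers in the deposited tables to these pig symbols. All 6 were present in both tables, out of 19000 genes in the knockdown table and 17001 in the overexpression table, and all 6 passed the filter on low values along with 11645 and 11506 genes in total. MT-2B was chosen because of earlier results on these data, in which it was lower in both knockdown groups than in their control. Its differences from that control are therefore given as a description without a test.

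Values are FPKM, fragment counts scaled to gene length and to the library's total, so they can be compared between genes within a library. The knockdown table holds 3 libraries each of Lv3NC (the control vector for knockdown), Lv133KD (a vector against miR-133) and Lv143KD, whose target the series' own text gives as miR-133 although the sample label names 143. The overexpression table holds 3 libraries each of Lv20NC (the control vector for overexpression) and OV143 (miR-143 overexpression). All groups carry a lentivirus, and no untransduced cells were analysed here. Neither time after transduction nor the number of clones is given in the sources used here, and the zinc content of the medium is not given either.

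Zinc that enters a cell through importers of the SLC39 (ZIP) family is bound by metallothioneins, small cysteine-rich proteins, or is returned across the plasma membrane by SLC30A1 (ZnT1). MTF1 binds zinc through its zinc fingers and then switches on metallothionein genes and SLC30A1, while SLC39A10 is described as a gene that MTF1 represses when zinc is plentiful. In the intestine SLC39A4 (ZIP4) takes up dietary zinc at the apical membrane, and metallothioneins are induced by zinc, copper, cadmium, glucocorticoids and oxidative stress.

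MT-2B was lower than in the matched control vector in every replicate pair of all 3 vector groups, by 0.58 to 0.70 on the log2 scale on average. In the 2 knockdown groups these differences chose the gene. Of all tested genes, 16.8% in Lv133KD and 16.4% in Lv143KD were lower in all 3 pairs. In OV143, MT-2B did not pass when only group means were fitted (limma adjusted p = 0.241). It passed there with replicate numbers as blocks (limma adjusted p = 0.0209), and leaving out the libraries numbered 1 ended that call. Results of the overexpression table were known too when the members were chosen, so this is a description. MT1A, the other expressed metallothionein with a proper name, was lower in all 3 pairs in Lv143KD (mean difference -0.28) but in 1 of 3 in Lv133KD and in OV143, and did not pass in any comparison. The exporter SLC30A1 was lower in 2 of 3 pairs in both knockdown groups and in 3 of 3 in OV143, and did not pass either. In the knockdown table most of the variation of MT-2B lay between replicate numbers instead of vectors, and libraries with less MT-2B held more SLC39A10 (r = -0.92 over 9 libraries, but -0.28 with vector group and replicate number removed). With all libraries included, none of the relations among the 2 metallothioneins and the exporter passed. The RNA is from bulk cultures, in which fewer cells of a type and less RNA per cell cannot be told apart.

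Library-wide facts bear on these values. FPKM keeps no read totals, so depth is unknown. The libraries of the knockdown table summed to between 486086 and 520630 FPKM. Those of the overexpression table summed to between 518578 and 558042 FPKM, except OV143 replicate 2, which reached 662022 FPKM. All 9 epithelial markers were listed, with the keratin KRT8 between 519.95 and 887.51 FPKM in knockdown-table libraries and between 615.5 and 1030.3 FPKM in the others. VIL1, the brush-border protein villin, was low at 0.98 to 2.65 FPKM and 3.16 to 4.14 FPKM. The summed level of 6 leukocyte markers was 3.59 to 6.08 FPKM in the knockdown table, where PTPRC was listed at 0 in every library, and 5.17 to 8.58 FPKM over the 5 listed in the overexpression table. The summed fibroblast and endothelial markers reached at most 6.4 and 13.6 FPKM in any library.

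**Figure D1:**
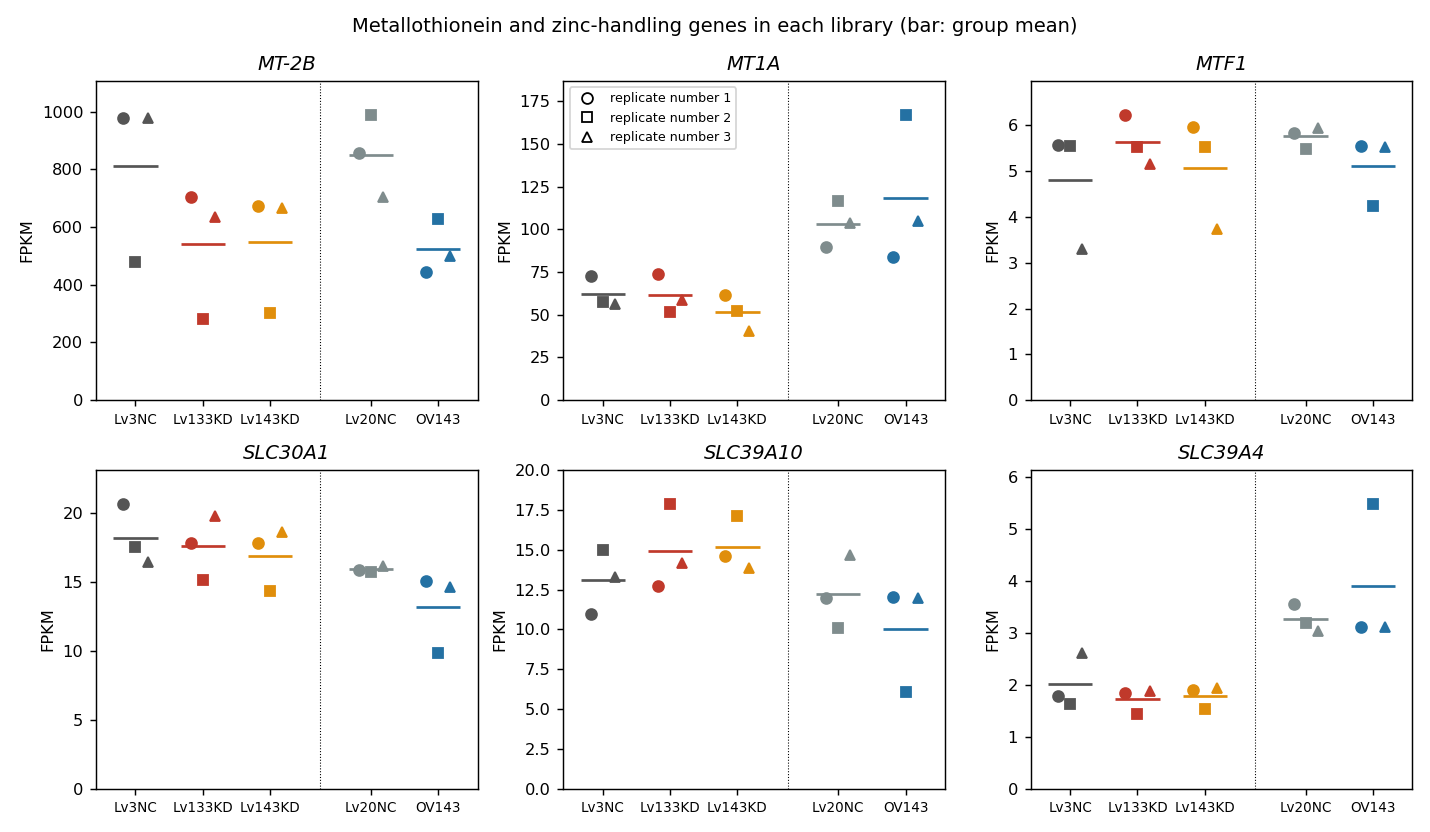
FPKM (vertical axes, linear, from 0) of the 6 genes in each of the 15 libraries by vector group, with the marker shape giving the replicate number, the bar the mean of 3 libraries, and a dotted line between the separately normalised tables. MT-2B was lowest in the libraries numbered 2 of all 3 knockdown-table groups (280.03 to 477.27 FPKM), and all 3 OV143 libraries (444.26 to 628.28 FPKM) lay below all 3 Lv20NC libraries (703.35 to 988.04 FPKM).

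MT-2B (NCBI Gene 396827; Sscrofa11.1 chromosome 6, 18645125 to 18646034) was by far the most abundant of the 6. Its mean over the knockdown table was 633.3 FPKM, rank 125 of 19000 genes, and 686.8 FPKM (rank 127 of 17001) was its mean in the other table. It also varied more than nearly all other genes: its SD over the 9 knockdown-table libraries was 0.65 on the log2 scale, larger than that of 99.2% of tested genes, against a median of 0.17. Its SD over the 6 overexpression-table libraries was 0.44, larger than that of 97.5% of tested genes.

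In Lv3NC, MT-2B stood at 977.68, 477.27 and 979.94 FPKM in replicates 1, 2 and 3. In Lv133KD it stood at 705.5, 280.03 and 635.91 FPKM. In Lv143KD it stood at 673.42, 301.76 and 667.9 FPKM. The groups overlapped, because the Lv3NC library numbered 2 was below 4 of the 6 knockdown-vector libraries, while within each replicate number the control was the highest. The differences from Lv3NC in log2(FPKM + 1) were -0.47, -0.77 and -0.62 in Lv133KD and -0.54, -0.66 and -0.55 in Lv143KD for numbers 1, 2 and 3. Both vector groups were compared with the same 3 controls, so the 2 sets of differences are not independent.

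The mean difference was -0.62 in Lv133KD (540.5 ± 228.2 against 811.6 ± 289.6 FPKM, SD, n = 3 each) and -0.58 in Lv143KD (547.7 ± 213.0 FPKM). Its standard error was 0.44 when only group means were fitted and 0.08 when replicate numbers entered the model as blocks (the replicate block). These values were in view when the gene was chosen, so no p is attached. Of all tested genes, 16.8% in Lv133KD and 16.4% in Lv143KD were likewise lower in all 3 replicate pairs. A more negative fold change than that of MT-2B was seen in 0.18% of tested genes in Lv133KD and in 0.0687% in Lv143KD. These differences chose the gene, so its place among all genes is a description and nothing is read from it. Leaving out 1 library moved the difference from -0.20 (without Lv133KD replicate 2) to -0.97 (without Lv3NC replicate 2) in Lv133KD, and from -0.20 (without Lv143KD replicate 2) to -0.93 (without Lv3NC replicate 2) in Lv143KD.

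OV143 gave a comparison with separate controls. MT-2B stood at 857.54, 988.04 and 703.35 FPKM in Lv20NC replicates 1, 2 and 3. In OV143 it stood at 444.26, 628.28 and 499.05 FPKM. The groups did not overlap. The means were 523.9 ± 94.5 against 849.6 ± 142.5 FPKM (SD, n = 3 each), a log2 fold change of -0.70 (SE 0.18), or 1.62-fold lower. The difference did not pass without the block (limma adjusted p = 0.241 over 11506 genes) and passed with it (SE 0.12, limma adjusted p = 0.0209), with differences of -0.95, -0.65 and -0.49 in the 3 pairs. Without OV143 replicate 2 it passed without the block as well (log2 fold change -0.84, limma adjusted p = 0.00597), in a fit that called 4.48% of all genes. With the block, leaving out the libraries numbered 1 ended the call (log2 fold change -0.57, limma adjusted p = 0.0742). The members were chosen with results of this table known too, so these adjusted p-values are a description and not independent support.

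MT1A (NCBI Gene 397417, on chromosome 6 from 18672016 to 18673673) lies in the same gene cluster and encodes a second metallothionein. In Lv3NC it stood at 72.43, 57.7 and 56.17 FPKM. In Lv133KD it stood at 73.81, 51.68 and 58.47 FPKM. In Lv143KD it stood at 61.53, 52.34 and 40.48 FPKM. All 3 groups overlapped, although MT1A was lower in Lv143KD than in Lv3NC within each number. The log2 fold change was -0.02 (SE 0.18) in Lv133KD and -0.28 (SE 0.18) in Lv143KD, and neither passed (limma adjusted p = 0.985 and 1.00, or 0.916 and 0.726 with the block). The 95% confidence intervals without the block, -0.43 to 0.39 and -0.69 to 0.13, include 0. With the block they were -0.24 to 0.20 and -0.50 to -0.06, of which the second leaves out 0. These intervals are not adjusted for the number of genes. Without Lv133KD replicate 2 or Lv3NC replicate 1 the first difference was 0.09, and without Lv133KD replicate 3 it was 0.00191. Without Lv143KD replicate 3 the second was -0.12.

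With the overexpression vectors, MT1A stood at 89.6, 116.44 and 103.94 FPKM in Lv20NC. In OV143 it stood at 83.75, 166.88 and 105.13 FPKM, so the library numbered 2 was above every other library and the remaining pair fell inside the range of the controls or below it. The log2 fold change was 0.15 (SE 0.24, limma adjusted p = 0.832), and without OV143 replicate 2 it was -0.13. The direction of MT1A in OV143 thus rested on 1 library.

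**Figure D2:**
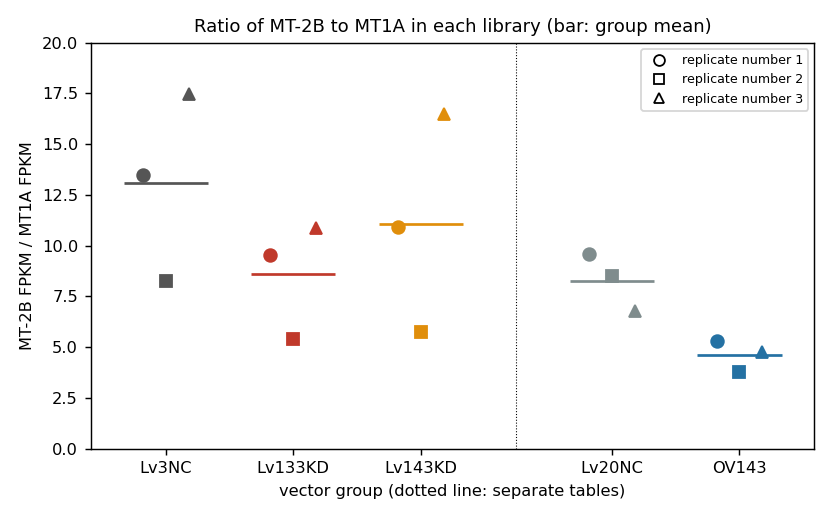
Ratio of MT-2B FPKM to MT1A FPKM (vertical axis, linear, from 0) in each library by vector group, with the marker shape giving the replicate number and the bar the mean of 3 libraries. All OV143 libraries (3.77 to 5.30) lie below all Lv20NC libraries (6.77 to 9.57), while the knockdown-table groups overlap.

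The ratio of the 2 metallothioneins was compared next, since a library-wide scaling factor cancels in it. The ratio still depends on how reads that match several metallothionein copies were assigned, which is not given in the sources used here. In Lv20NC, MT-2B was at 9.57, 8.49 and 6.77 times the FPKM of MT1A. In OV143 the ratio was 5.30, 3.77 and 4.75. The means were 4.61 ± 0.780 and 8.27 ± 1.41 (SD, n = 3 each), and the groups did not overlap (exact permutation test, two-sided, p = 0.1, the smallest that 3 against 3 libraries allow). The ratio includes OV143 replicate 2, in which both genes were the highest of their group. MT-2B was chosen with results of this table known, so the comparison is a description.

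In the knockdown table the ratio was 13.5, 8.27 and 17.5 in Lv3NC. It was 9.56, 5.42 and 10.9 in Lv133KD and 10.9, 5.77 and 16.5 in Lv143KD. Each knockdown-vector library was below the Lv3NC library of the same number, but the groups overlapped. No test is given here, since MT-2B was chosen on these same groups. The libraries numbered 2 had the lowest ratio in each group.

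The rest of the metallothionein cluster on chromosome 6 was mostly silent or unnamed. Of 13 further metallothionein symbols looked up, 3 had a row in the knockdown table and 2 in the overexpression table, and none reached the filter. MT4 stood at 0 to 0.4 FPKM, MT1D at 0 to 0.19 FPKM, and MT3, known from brain, at 0 to 0.07 FPKM in the knockdown table. Between MT1D and MT1A lie 2 protein-coding genes without a proper name, picked out here by their position after the data were seen. LOC102166944 (from 18660665 to 18662000) ranged over 65.03 to 148.52 FPKM in knockdown-table libraries and over 120.98 to 210.66 FPKM in the others. On average it stood above MT1A in the knockdown table (102.45 against 58.29 FPKM) and in the overexpression table (158.42 against 110.96 FPKM). LOC100739663 (from 18655972 to 18657515) stood at 18.88 to 33.65 FPKM and at 1.66 to 8.73 FPKM. In Lv143KD both were lower than Lv3NC in all 3 pairs, as were 16.4% of all tested genes. The differences in log2(FPKM + 1) were -0.35, -0.34 and -0.49 for LOC102166944 and -0.19, -0.19 and -0.13 for LOC100739663. Their signs were mixed in Lv133KD (-0.24, -0.44 and 0.16, and -0.02, -0.38 and 0.38). The same held in OV143 (-0.38, 0.20 and -0.21, and -0.20, 0.89 and -0.23). Metallothionein copies are short and alike, and how the authors assigned reads that match several of them is not given in the sources used here, so levels of single copies are uncertain. LOC100739663 was lower in the overexpression table while MT1A and LOC102166944 were higher there. The tables were normalised separately, and the part of read assignment in this was not tested.

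MTF1 (NCBI Gene 100511998, on chromosome 6 from 93837195 to 93884427) was low. Its SD on the log2 scale was 0.26 in the knockdown table, larger than that of 76.3% of tested genes, and 0.15 in the overexpression table, larger than that of 35.4%. In Lv3NC it stood at 5.56, 5.55 and 3.31 FPKM. In Lv133KD it stood at 6.22, 5.53 and 5.16 FPKM, and in Lv143KD at 5.97, 5.52 and 3.74 FPKM. The order of the means was Lv133KD (5.64 ± 0.538), Lv143KD (5.08 ± 1.18) and Lv3NC (4.81 ± 1.30 FPKM, SD, n = 3 each), with neighbours closer than their spread. In Lv20NC it stood at 5.84, 5.48 and 5.95 FPKM and in OV143 at 5.55, 4.24 and 5.53 FPKM. The log2 fold changes were 0.22, 0.07 and -0.15 in Lv133KD, Lv143KD and OV143, and none passed (limma adjusted p = 0.926, 1.00 and 0.651). The direction in Lv143KD turned without Lv3NC replicate 3 (-0.13) or Lv143KD replicate 1 (-0.04). The activity of MTF1 depends on zinc binding and nuclear entry, which its transcript level does not measure.

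SLC30A1 (NCBI Gene 503660, on chromosome 9 from 131633586 to 131636934) encodes the exporter of the plasma membrane. In Lv3NC it stood at 20.65, 17.5 and 16.46 FPKM. In Lv133KD it stood at 17.85, 15.11 and 19.78 FPKM, and in Lv143KD at 17.82, 14.31 and 18.6 FPKM. It was lower than the control in the pairs numbered 1 and 2 and higher in the pair numbered 3, for both vectors. The log2 fold changes were -0.05 (95% confidence interval -0.37 to 0.27) and -0.10 (-0.42 to 0.22), and neither passed (limma adjusted p = 0.949 and 1.00). Without Lv133KD replicate 2 or Lv3NC replicate 1 the first was 0.05 or 0.04, and without Lv143KD replicate 2 the second was 0.01.

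With the overexpression vectors, SLC30A1 stood at 15.88, 15.72 and 16.18 FPKM in Lv20NC, the tightest set of any of the 6 genes there. In OV143 it stood at 15.09, 9.81 and 14.61 FPKM, below all 3 controls. The log2 fold change was -0.28 (SE 0.16) and did not pass (limma adjusted p = 0.555, or 0.256 with the block). Most of it came from OV143 replicate 2: without that library it was -0.09 (limma adjusted p = 0.525).

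SLC39A10 (NCBI Gene 110257100, on chromosome 15 from 99584830 to 99724621) encodes the importer ZIP10. In Lv3NC it stood at 10.96, 15.01 and 13.28 FPKM. In Lv133KD it stood at 12.73, 17.87 and 14.18 FPKM, and in Lv143KD at 14.62, 17.13 and 13.83 FPKM. It was higher than the control in all 3 pairs for both vectors, as were 16.2% and 11.7% of all tested genes, although the groups overlapped. The log2 fold changes were 0.17 (SE 0.16) and 0.21 (SE 0.16), and neither passed (limma adjusted p = 0.926 and 1.00, or 0.343 and 0.856 with the block). In Lv20NC it stood at 11.95, 10.06 and 14.65 FPKM and in OV143 at 12.01, 6.09 and 11.95 FPKM. There the log2 fold change was -0.30 (SE 0.25, limma adjusted p = 0.677), and without OV143 replicate 2 it was -0.01.

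SLC39A4 (NCBI Gene 100156896, on chromosome 4 from 372681 to 378519), the importer ZIP4 of the enterocyte's apical side, was the lowest of the 6. In Lv3NC it stood at 1.79, 1.64 and 2.62 FPKM. In Lv133KD it stood at 1.85, 1.44 and 1.89 FPKM, and in Lv143KD at 1.91, 1.54 and 1.93 FPKM. In Lv20NC it stood at 3.55, 3.19 and 3.04 FPKM and in OV143 at 3.11, 5.48 and 3.12 FPKM. The log2 fold changes were -0.14, -0.10 and 0.17 in Lv133KD, Lv143KD and OV143, and none passed (limma adjusted p = 0.926, 1.00 and 0.753). Each turned direction when 1 library was left out: without Lv3NC replicate 3 the first was 0.00257 and the second 0.04, and without OV143 replicate 2 the third was -0.05.

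**Figure D3:**
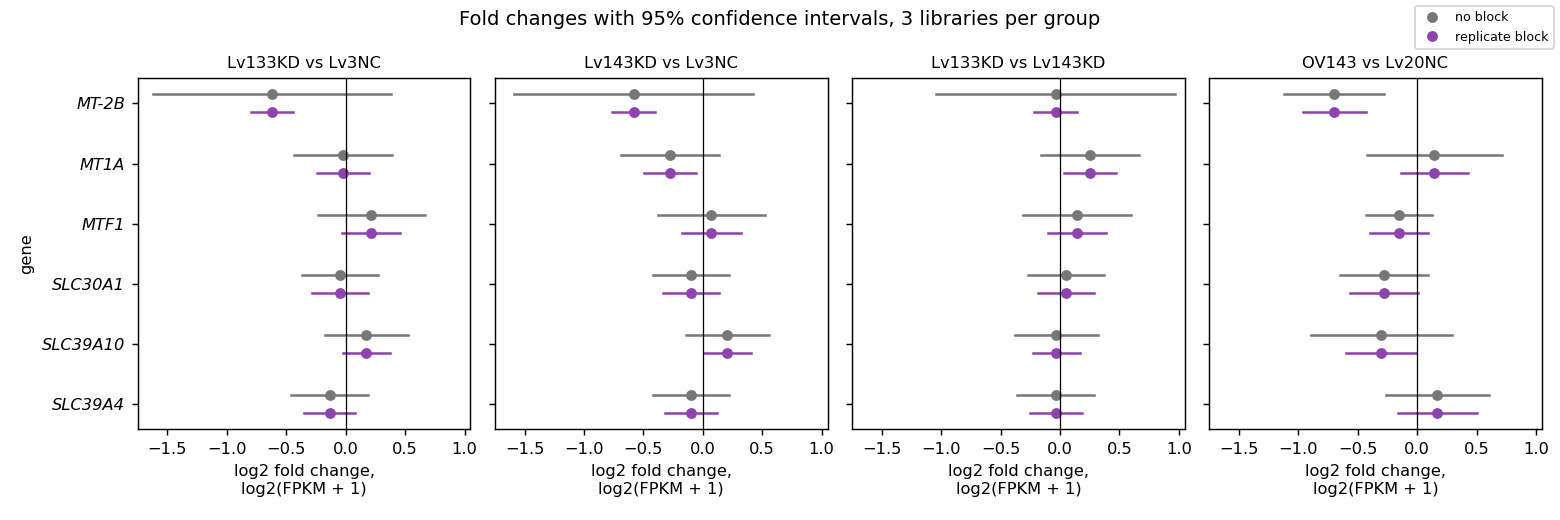
Log2 fold changes on the log2(FPKM + 1) scale (horizontal axes) of the 6 genes (vertical axis) in the 4 comparisons, with 95% confidence intervals from the limma fit of group means (grey) and from the blocked fit (purple), 3 libraries per group. In the knockdown table the standard error of MT-2B goes from 0.44 to 0.08 with the block, and in OV143 from 0.18 to 0.12.

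Over the 6 genes, 0 of 6 passed in Lv133KD and 0 of 6 in Lv143KD without the block, where limma called 0.0172% of all tested genes in each. With the block MT-2B is not counted, since its differences in these groups chose it. None of the other members passed with the block, where limma called 0.258% and 0.172% of all tested genes. No group of the 6 genes was free of overlap with Lv3NC in either comparison, against 8.02% and 4.14% of all tested genes. In OV143, 0 of 6 passed without the block, where limma called 0 of 11506 genes and an unadjusted p under 0.05 was found for 1304 (11.3%). With the block 1 of 6 passed, MT-2B, where it called 1.94% of all tested genes, 149 of the 223 (1.29% of tested genes) being lower. MT-2B was chosen with results of this table known as well, so this count is a description. There 2 of 6 genes, MT-2B and SLC30A1, lay wholly below Lv20NC, as did 12.9% of all tested genes, and 21.9% were free of overlap in either direction.

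Lv133KD and Lv143KD were compared directly, without the controls in the contrast. The log2 fold change of MT-2B was -0.04 without the block (95% confidence interval -1.04 to 0.97) and the same with it (-0.22 to 0.14). The other fold changes were 0.25 for MT1A, 0.14 for MTF1, 0.05 for SLC30A1, -0.03 for SLC39A10 and -0.04 for SLC39A4. In this comparison 0 of 6 genes passed with the block or without, where limma called 0 of 11645 genes in either fit and an unadjusted p under 0.05 was found for 15 genes (0.129%), or 209 (1.79%) in the blocked fit. No group was free of overlap among the 6 genes, against 2.66% of all tested genes. The smallest limma adjusted p among the 6 was 0.910 with the block, shared by MT1A and MTF1. The direction of MT-2B turned without Lv133KD replicate 2 (0.38), Lv143KD replicate 1 (0.16) or Lv143KD replicate 3 (0.15).

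The replicate number marked a larger difference than the vector for every one of the 6 genes in the knockdown table. It accounted for 77.8% of the sum of squares of MT-2B in log2(FPKM + 1), and the vector group for 21.5%, which left 0.689%. Over all tested genes the medians were 58.0% for the number, 13.1% for the group and 23.8% for the rest. For the other 5 genes the number accounted for 52.4% (SLC30A1) to 70.7% (MTF1) and the group for 7.58% (SLC30A1) to 26.7% (MT1A). In the overexpression table the order was the other way for MT-2B, with 74.5% for the group and 20.1% for the number. It was so narrowly for SLC30A1 (36.3% and 34.7%), while MT1A had 5.20% and 77.3%. The medians over all tested genes there were 18.9% for the group and 53.1% for the number. That table has fewer groups, so shares cannot be compared directly between the tables.

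Within each knockdown-table group the library numbered 2 was set against the mean of the other two. MT-2B differed by -1.03 in Lv3NC, -1.25 in Lv133KD and -1.15 in Lv143KD on the log2 scale, and 0.481% of tested genes had a more negative mean. SLC39A10 was higher there in each group, with differences of 0.29, 0.39 and 0.25. SLC30A1 differed by -0.07, -0.30 and -0.33 and SLC39A4 by -0.27, -0.23 and -0.20. The differences of MT1A (-0.14, -0.34 and 0.07) and MTF1 (0.30, -0.03 and 0.18) changed sign between groups. Shifts shared by the 3 groups were common: 37.7% of tested genes were lower and 29.8% higher in the libraries numbered 2 of all 3 groups. In the overexpression table the libraries numbered 2 went the other way for both genes, with MT-2B higher by 0.35 in Lv20NC and 0.42 in OV143, and SLC39A10 at -0.36 and -0.87. What a replicate number stands for is not given in the labels.

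Whether metallothioneins and zinc export moved together was examined over libraries, with Pearson's r and Spearman's rho in log2(FPKM + 1) and exact permutation tests (two-sided). All 15 pairs of the 6 genes were computed in each table, 30 relations in all, and p was adjusted over the 30. The members were chosen with results of both tables known, so these p-values are a description and not independent support. In the knockdown table (n = 9 libraries) MT-2B and SLC30A1 had r = 0.74 (exact p = 0.0225, adjusted p = 0.113) and rho = 0.48 (exact p = 0.194, adjusted p = 0.375). Without the 2 libraries farthest from the median of MT-2B, Lv133KD replicate 2 and Lv143KD replicate 2, r was 0.12, and over the 6 libraries numbered 1 and 3 it was -0.09 (exact p = 0.839). The relation rested on the libraries numbered 2. It was 0.06 once vector group and replicate number were both removed. Without Lv3NC replicate 3 the relation passed (r = 0.93, n = 8 libraries, exact permutation test, adjusted p = 0.0403).

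MT1A and SLC30A1 had r = 0.36 in the knockdown table (exact p = 0.353, adjusted p = 0.504; rho = 0.50, exact p = 0.178, adjusted p = 0.375). The 2 metallothioneins had r = 0.39 (exact p = 0.298, adjusted p = 0.471; rho = 0.53, exact p = 0.147, adjusted p = 0.369). Without the 2 farthest libraries r was 0.87 for MT1A and SLC30A1 (a subset of 7 libraries that was chosen by MT1A) and 0.26 for the metallothioneins. None of the 3 relations passed.

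MT-2B and the importer SLC39A10 gave the 1 relation of the 30 that passed by Pearson's r, with r = -0.92 over 9 libraries (exact p = 5.57e-04, adjusted p = 0.0167) and rho = -0.90 (exact p = 0.00203, adjusted p = 0.0608). The 3 libraries numbered 2 were the 3 lowest in MT-2B and the 3 highest in SLC39A10. Without Lv133KD replicate 2 and Lv143KD replicate 2, r was -0.78, and over the 6 libraries numbered 1 and 3 it was -0.72 (exact p = 0.0889; rho = -0.66, exact p = 0.175). With vector group and replicate number removed it was -0.28. Libraries with the same number deviated together, so the 9 are not independent and these p-values are too small. MT-2B was chosen on differences between these same libraries, so the relation is a description.

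**Figure D4:**
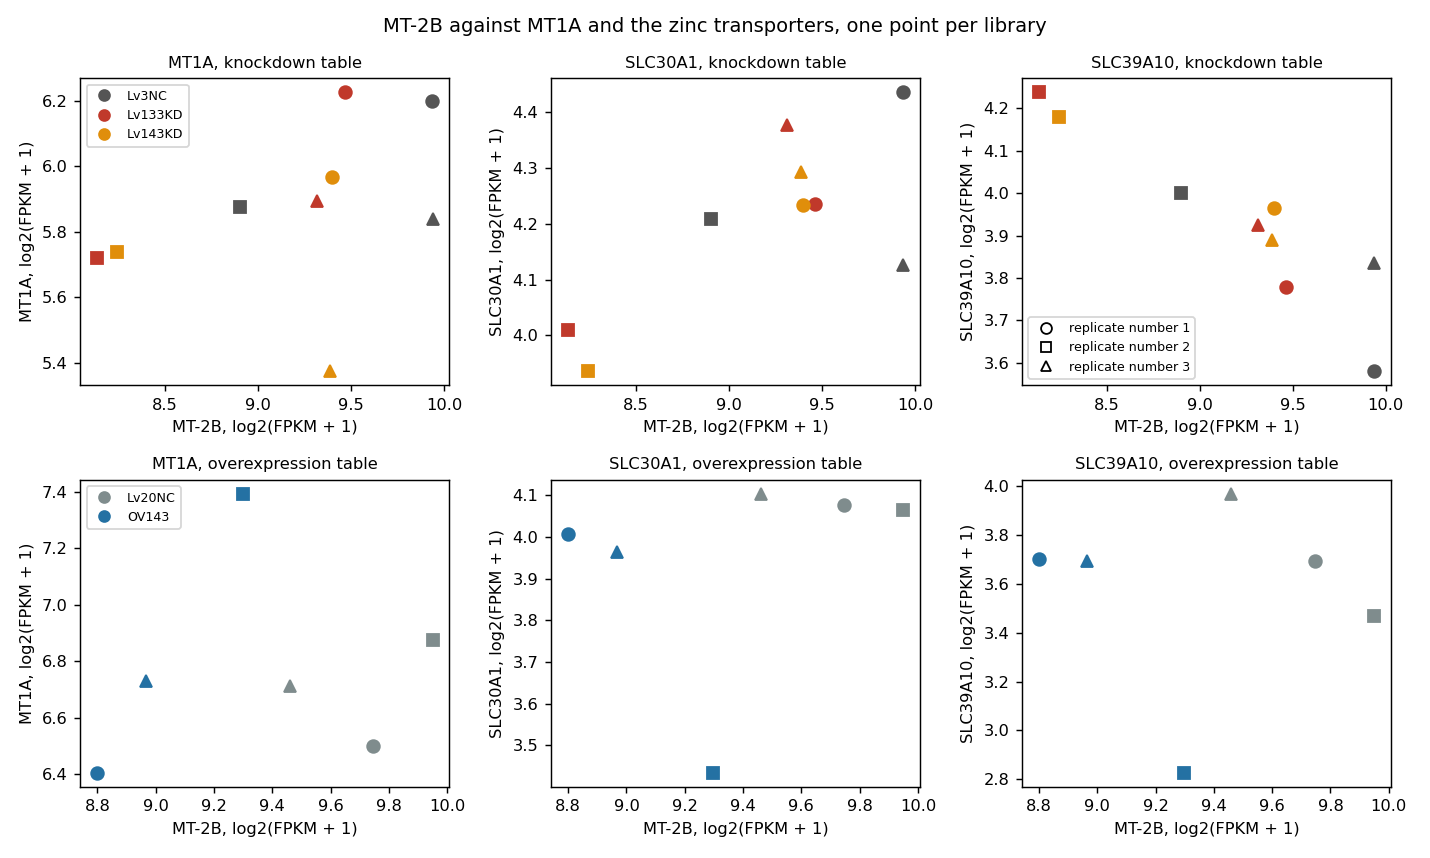
MT1A, SLC30A1 and SLC39A10 (vertical axes) against MT-2B (horizontal axes), all in log2(FPKM + 1), with 1 point per library, in the knockdown table (top) and the overexpression table (bottom). Colour gives the vector group and shape the replicate number. At the top right SLC39A10 runs against MT-2B (r = -0.92, n = 9), and at the bottom OV143 replicate 2 has the highest MT1A and the lowest SLC30A1 and SLC39A10.

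In the overexpression table (n = 6 libraries) no relation passed. MT-2B had r = 0.22 with SLC30A1 (exact p = 0.704, adjusted p = 0.893; rho = 0.54, exact p = 0.297, adjusted p = 0.485) and r = 0.18 with MT1A (exact p = 0.765, adjusted p = 0.918; rho = 0.31, exact p = 0.564, adjusted p = 0.680). Its r with SLC39A10 was -0.06 (exact p = 0.928, adjusted p = 0.960; rho = -0.29, exact p = 0.567, adjusted p = 0.680). Without the 2 farthest libraries these r were 0.30, -0.36 and 0.18. MT1A and SLC30A1 had r = -0.84 (exact p = 0.0972, adjusted p = 0.206; rho = -0.49, exact p = 0.356, adjusted p = 0.485), and without OV143 replicate 2 r was 0.13. That library had the highest MT1A and SLC39A4 and the lowest MTF1, SLC30A1 and SLC39A10 of the table, and it also had the largest FPKM sum. With 3 libraries per group, no r can be given within a group.

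Of 5843 genes with a symbol, other than the 6, averaging at least 10 FPKM in both tables, those with a pattern most like MT-2B over the 9 knockdown-table libraries were YBEY (r = 0.98), WSB2 (0.98), CIPC (0.98), AGPAT2 (0.98) and NUDT14 (0.97). YBEY is a ribonuclease of mitochondria, WSB2 a component of ubiquitin ligases, CIPC an inhibitor of the circadian factor CLOCK, AGPAT2 an enzyme of phospholipid and triglyceride synthesis, and NUDT14 a hydrolase of UDP-glucose. Over the 6 libraries of the overexpression table r was 0.95 for WSB2, but 0.15 for YBEY, 0.32 for AGPAT2, 0.16 for NUDT14 and -0.31 for CIPC. Only WSB2 of these 5 thus followed MT-2B in both tables. All points share libraries and the common shift by replicate number, so these likenesses are a description.

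The other zinc transporters gave no call in any of the 4 comparisons, with the block or without. Of 10 other exporters looked up, mostly SLC30 genes of the Golgi and vesicles, 7 were tested in the knockdown table and 6 in the overexpression table. The medians of their log2 fold changes were -0.02 in Lv133KD, -0.02 in Lv143KD and -0.10 in OV143, beside 0.00827, -0.01 and -0.02 over all tested genes. Among the 3 most abundant in the knockdown table, SLC30A9 had -0.01, -0.01 and -0.10, SLC30A5 had -0.01, -0.02 and -0.10, and SLC30A7 had -0.07, -0.07 and -0.15 in Lv133KD, Lv143KD and OV143. SLC30A3, picked out after its values were seen, stood above SLC30A7 in the overexpression table (23.4 against 17.4 FPKM on average) and went the other way. It ranged from 24.08 to 32.27 FPKM in OV143 and from 18.41 to 21.55 FPKM in Lv20NC, without overlap, a log2 fold change of 0.39 that did not pass (limma adjusted p = 0.333, or 0.109 with the block). Groups free of overlap in either direction were seen there for 21.9% of all tested genes.

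Of 12 other importers, 9 were tested in the knockdown table and 10 in the overexpression table, with medians of 0.05 in Lv133KD, -0.02 in Lv143KD and -0.01 in OV143. The most abundant were SLC39A1, of the plasma membrane (-0.14, -0.11 and 0.08), SLC39A7, which releases zinc from the endoplasmic reticulum (0.05, -0.02 and 0.09), and SLC39A6 (-0.02, -0.10 and -0.20). SLC39A14, picked out after its values were seen, had the smallest limma adjusted p of both lists in OV143 (0.313, or 0.0760 with the block). Its log2 fold change was -0.51. It was 1 of 2 of these importers wholly below Lv20NC, as were 12.9% of all tested genes. SLC39A9, picked out likewise, lay wholly above Lv3NC in Lv133KD (0.26) and Lv143KD (0.25), while 1 importer lay wholly below in Lv133KD. Of all tested genes, 8.02% in Lv133KD and 4.14% in Lv143KD were free of overlap in either direction. Neither gene passed.

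**Figure D5:**
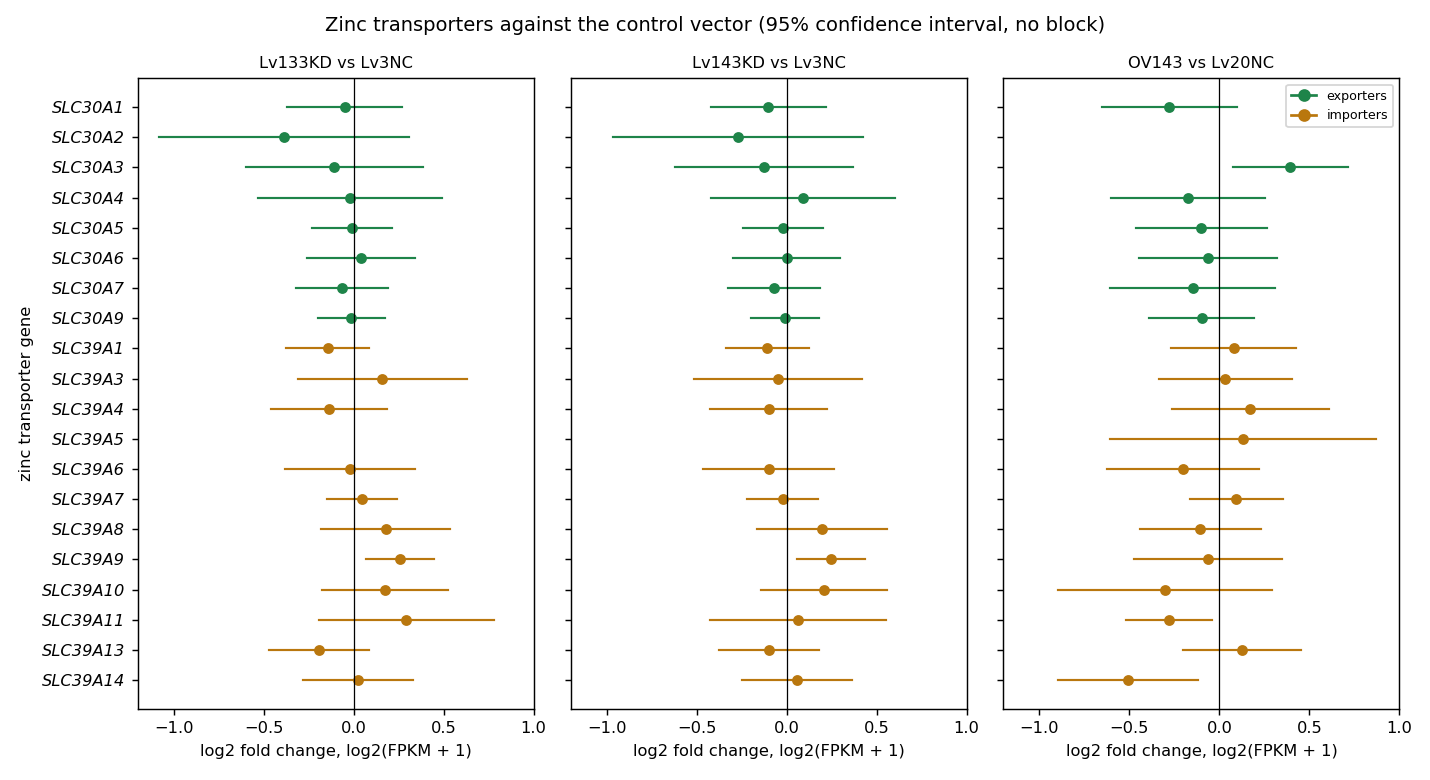
Log2 fold changes on the log2(FPKM + 1) scale (horizontal axes) with 95% confidence intervals from the fit without the block, for the zinc exporters (green) and importers (brown) that passed the filter (vertical axis), against the control vector in Lv133KD, Lv143KD and OV143, 3 libraries per group. A gene without a point was not tested in that table, and none passed after adjustment over all genes.

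Genes that respond to the same stimuli as metallothioneins were looked up in 4 further lists. Of 5 other genes described as MTF1 targets, 4 were tested in each table and none passed in any comparison, with medians of 0.09, -0.00497 and 0.09 in Lv133KD, Lv143KD and OV143. The selenoprotein SELENOH had -0.00290, -0.11 and 0.16, the growth factor PGF had 0.00490, -0.06 and 0.02, and the mitochondrial thioredoxin reductase TXNRD2 had 0.18, 0.05 and -0.17, lying wholly below Lv20NC in OV143. GCLC, the catalytic subunit of the enzyme that starts glutathione synthesis and picked out after its values were seen, had 0.27, 0.15 and 0.42. It did not overlap with the controls in Lv133KD and OV143, where it was higher in 3 of 3 pairs, and did not pass (limma adjusted p = 0.926 and 0.213, or 0.251 and 0.0697 with the block). Of all tested genes, 8.02% in Lv133KD and 21.9% in OV143 were free of overlap in either direction. In Lv133KD 16.2% were higher in all 3 pairs. Of 14 genes of copper handling, 12 were tested in each table and none passed, with medians of 0.06, 0.02 and 0.16. Among them the superoxide dismutase SOD1 had -0.03, -0.03 and 0.20, the copper chaperone of cytochrome oxidase COX17 had 0.19, -0.02 and 0.40, and the chaperone ATOX1 had 0.06, 0.02 and 0.27.

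Of 10 glucocorticoid targets, 8 were tested. None passed without the block, and 1 of 8 passed lower in OV143 with it, where 1.29% of all tested genes did: ERRFI1, a feedback inhibitor of the EGF receptor, with a log2 fold change of -1.22 (limma adjusted p = 0.00802 in the blocked fit, 0.124 otherwise). FKBP5, a co-chaperone of the glucocorticoid receptor, had -0.00891, 0.06 and -0.17 in Lv133KD, Lv143KD and OV143, and the transcription factor CEBPD had 0.08, 0.07 and -0.19. The list's medians were -0.28 in Lv133KD, -0.09 in Lv143KD and -0.18 in OV143. Of 10 genes of oxidative and heavy-metal stress, 9 were tested. None passed without the block, and 1 of 9 passed lower in OV143 with it, beside the same 1.29% of all tested genes: SLC7A11, the cystine importer, with a log2 fold change of -1.13 (limma adjusted p = 0.0438 in the blocked fit, 0.370 otherwise). The heat-shock co-chaperone DNAJB1 had 0.11, 0.05 and 0.06, and the antioxidant enzyme SRXN1 had -0.16, -0.07 and 0.08 in the same order. The medians of that list were 0.14, 0.00258 and 0.11.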

How the data were processed

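The authors deposited FPKM values per gene, per the file headers, in a table of 9 libraries and another of 6, with no identical libraries. The submitters' processing notes name Sscrofa11.1, while the sources used here do not state aligner, counting or read assignment. Symbols and 1-based coordinates came from a RefSeq gene table of that build. No sequence table was given, so no sequence is shown. The log2 scale had a pseudocount of 1 FPKM added, so changes of low genes are understated. A gene reaching 1 FPKM in 3 or more libraries entered limma 3.58.1 (R 4.3.3), each table fitted whole, trended variance, two-sided, Benjamini-Hochberg adjustment, threshold 0.05. The fits were checked on simulated data with the same noise for every gene and larger changes than that of MT-2B. How often changes of its size are found in the real spread was not tested. The median standard error was 0.144 in the knockdown table and 0.131 in the overexpression table, or 0.0969 and 0.11 with the block.

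The members and lists were chosen with earlier results of these data known. Named list genes were the 3 most abundant in the knockdown table and any called, apart from 1 that is not reported here. The labels do not say whether libraries are separate cultures, so p-values measure spread that may be technical. Deviations of same-numbered libraries correlated at 0.27 to 0.852 (9 pairs) and 0.229 to 0.716 (3 pairs), above the limit of 0.1 for pairing. Differently numbered libraries ranged from -0.87 to 0.379 and from -0.676 to 0.54, so the 2 ranges overlap. A blocked fit, with numbers as blocks, is quoted where it changes a call. Alternatives covered pseudocount, filter, scaling, variance trend, groups fitted, block and left-out libraries.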

Additional observations from a re-analysis of the deposited data

How the results depend on the processing

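MT-2B kept its direction under every pseudocount, filter, scaling and block tried against Lv3NC and Lv20NC. With the replicate block, 1 of 6 genes (MT-2B) passed in OV143 instead of 0, also with the block and TPM scale and with the block and size factor scaling, both chosen after seeing the data. No count with the block is given for Lv133KD and Lv143KD, since the differences there chose MT-2B. The block changed no other call among the 6. The TPM scale moved the median of all genes in OV143 to -0.126, with MT-2B at -0.81. Leaving out libraries gave 0 to 1 genes in OV143 and 0 between the knockdown vectors. With the block, leaving out a number in the overexpression table leaves 1 residual degree of freedom, so the spread is largely set across genes.

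Directions that turned did so when libraries were left out. Over these fits the Lv133KD differences ranged from -0.1636 to 0.0899 for MT1A, -0.1997 to 0.0496 for SLC30A1 and -0.2252 to 0.00257 for SLC39A4. In Lv143KD they ranged from -0.129 to 0.2421 for MTF1, -0.2376 to 0.00625 for SLC30A1 and -0.1892 to 0.0385 for SLC39A4. Between the knockdown vectors they ranged from -0.4202 to 0.3814 for MT-2B, -0.0257 to 0.2525 for MTF1, -0.0556 to 0.1523 for SLC30A1, -0.1603 to 0.069 for SLC39A10 and -0.103 to 0.0421 for SLC39A4. In OV143 they ranged from -0.1295 to 0.3636 for MT1A and -0.0592 to 0.3287 for SLC39A4. With the block and a number left out, turned values were 0.02579 without number 1 and 0.02567 without number 2 for SLC30A1 and 0.04188 without number 2 for MT1A in Lv133KD. They were 0.002522 without number 3 for SLC39A4 in Lv143KD, 0.04568 without number 1 for SLC39A10 between the knockdown vectors, and -0.04001 without number 2 for MT1A in OV143. Without a single library, and without the block, the lowest SLC30A1 values were -0.1341 in Lv133KD and -0.1719 in Lv143KD, and SLC39A4 in OV143 ranged from -0.04817 to 0.2803. The cause was not tested.

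With group and replicate number removed (the replicate block), r in the knockdown table was 0.1844 for MT-2B and MT1A, 0.0574 for MT-2B and SLC30A1 and -0.1642 for MT1A and SLC30A1. In the overexpression table it was -0.2821 for MT-2B and SLC30A1 and -0.9982 for MT1A and SLC30A1. With both removed from that small table, few degrees of freedom remain and an extreme r arises easily, so nothing is read from these values. Over deviations from the group means there, r was 0.7567 for MT-2B and MT1A and -0.7345 for MT-2B and SLC30A1. Leaving out 1 library, r ranged from 0.6152 to 0.9303 for MT-2B and SLC30A1 in the knockdown table. In the overexpression table it ranged from -0.223 to 0.5056 for MT-2B and MT1A and from -0.915 to 0.1324 for MT1A and SLC30A1. The cause was not tested. Depth is unknown, so its limit on the low genes could not be given.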
